A study of Mus musculus with 4 samples.

Results

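The cells described here are ovarian stromal cells that carried UMIs of at least 2 of 5 genes, Nkain3, Wnt4, Hoxd9, Hoxd10 and Penk. UMIs, the random tags added to transcripts on capture, give the number of RNA molecules seen in a cell. A barcode was a member when it held at least 1000 UMIs with at most 20% from mitochondrial genes, had 1 or more UMI of at least 3 of the 6 stromal genes Dcn, Lum, Col1a1, Col1a2, Pdgfra and Tcf21, and had 0 UMIs of Pecam1, Ptprc, Fshr, Myh11, Lrat and Clec3b beside the 5-gene criterion. There were 2495 members among 7951 stromal cells, 30523 cells that passed the depth and mitochondrial limits, and 33639 deposited barcodes. Stromal cells means here all cells that met the criteria before those on Lrat, Clec3b and the 5 genes. The values that chose the members are counts of the genes named in the rule, so the levels of those genes are given only as a description.

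The series holds single-cell RNA libraries of mouse ovary, with 1 library per treatment and a single ovary from each of 5 animals pooled in every library. Mice were treated at postnatal day 25, an age before puberty, and ovaries were taken 4 h after the second weekly dose. The control library came from mice given PBS or saline, the doxorubicin library from mice given 3 mg/kg doxorubicin, the AMH library from mice given 0.75 mg/kg recombinant human anti-Müllerian hormone (AMH), and the doxorubicin+AMH library from mice given both at those doses. Strain and genotype are not given in the labels. With pooled animals and 1 library per group there was no test between groups, no p-value was computed, and differences between animals, dissections and library preparations cannot be told apart from those between treatments.

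Stroma fills the ovary between follicles, the units of an oocyte and its granulosa cells, and supplies the theca cells that make androgens. Wnt4 encodes a secreted Wnt ligand needed for development of the female gonad and the Müllerian duct, Hoxd9 and Hoxd10 encode transcription factors that mark position along the body axis, Penk encodes the precursor of the enkephalin opioid peptides, and Nkain3 encodes a membrane protein of a family that binds the sodium pump. Doxorubicin blocks topoisomerase II and breaks DNA, which activates p53, whereas AMH, a hormone of granulosa cells, signals through its receptor Amhr2 and the SMAD proteins shared with bone morphogenetic proteins (BMPs).

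In the GENCODE M21 annotation of GRCm38, the build called mm10 in the submitters' processing notes, 3 of the marker genes lie on chromosome 4: Penk at chr4:4133531-4138819 and Nkain3 at chr4:20118874-20778866, both on the minus strand, and Wnt4 at chr4:137277489-137299726 on the plus strand. Hoxd10 at chr2:74691924-74695105 and Hoxd9 at chr2:74697727-74700208 are neighbours on the plus strand. An exon of Hoxd10 overlaps Gm28309 on the same strand and one of Penk overlaps A830012C17Rik on the other, so reads of these genes may not all be theirs.

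The libraries held 138647495 to 178279122 UMIs. The control library held 661 members, doxorubicin 540, doxorubicin+AMH 656 and AMH 638, with median depths of 8584, 11570.5, 9121 and 8083.5 UMIs and median mitochondrial shares of 3.61% to 3.95%. The doxorubicin members were the deepest. Between 11 and 24 barcodes were shared by each pair of libraries, and none of them was a member in both. Below, 4 values in a row stand for the libraries in this same order, with AMH last. Levels are CPM, the UMIs of a gene summed over the members of a library and scaled to the same total in each library. All intervals are 95% and cover counting error only.

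The label of these cells was met in part. Wnt4 was seen in 2034 of the 2495 members and Hoxd9 in 1849, but Nkain3 in 913, which is 36.6% (95% Clopper-Pearson interval 34.7% to 38.5%). Penk was seen in 1022 members and Hoxd10 in 928. The most frequent combination was Wnt4 with Hoxd9, in 1450 members, and 557 members had these 2 genes and no other marker. Exactly 2 marker genes were seen in 1329 members, 3 in 693, 4 in 356 and all 5 in 117. Most members therefore met the rule at its threshold, and most showed no Nkain3 UMI.

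Depth bears on which cells met the rule, because a deeper cell shows more genes. With each stromal cell thinned to 2000 UMIs, which left out 20 to 37 shallower cells per library, Nkain3 was seen in 8.04%, 7.36%, 7.90% and 7.46% of stromal cells, against 17.0%, 16.8%, 17.5% and 16.9% without thinning. Thinned Hoxd9 shares were 12.0%, 12.3%, 13.1% and 11.0%, and Penk shares 10.2%, 8.37%, 7.47% and 8.96%. Free RNA in droplets also gives UMIs in cells that do not express a gene. Cells with Ptprc, a leukocyte gene, were taken with more than a single Ptprc UMI and no UMI of any stromal gene of the rule. Cells that had taken up free RNA of those stromal genes were thus left out, so these shares can understate free RNA. In these Ptprc cells thinned shares of Nkain3, Hoxd10 and Penk were 0% in all 4 libraries. There were 40 to 139 such cells, with median depths before thinning of 6591 to 9309 UMIs. The upper bounds of these shares were 2.62% to 8.81%.

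Wnt4 was the marker whose detection in stromal cells differed most between libraries. Its thinned share was 19.2% for control (17.5% to 20.9%), 27.1% for doxorubicin (25.0% to 29.3%), 25.9% for doxorubicin+AMH (23.9% to 27.9%) and 19.2% for AMH (17.5% to 20.9%). The share was higher in both libraries with doxorubicin than in both without. In Ptprc cells the share was 1.35% to 2.75%. Wnt4 is a gene of the rule, the intervals cover counting error over cells only, and with 1 library per group the difference was not tested.

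To see whether the members form one population, all 7951 stromal cells were clustered without the genes of the rule. The cluster with most members was led by Slc26a7, an anion exchanger, Adamts19, a secreted metalloprotease, Col12a1, a collagen of dense connective tissue, Zdbf2, an imprinted gene, and Wt1, a transcription factor of gonad and kidney mesenchyme. Called the Slc26a7 cluster here, it held 1315 members, 52.7% of all, and 683 of the 913 with Nkain3. Per library it held 348, 271, 357 and 339 members, which are 52.6%, 50.2%, 54.4% and 53.1%. Its leading genes include Wt1, whose level differed between libraries, so these shares are a description.

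The other members lay among stromal cells with other leading genes. There were 277 in a cluster led by Tmeff2 and Cxcl14, 202 in one led by the basement membrane gene Col4a1, 141 in one led by Aspn, and 112 in one led by the proliferation genes Top2a and Mki67. A cluster led by the steroid enzymes Cyp17a1 and Cyp11a1, genes of theca cells, held 51, 42, 26 and 17 members. A cluster led by Abhd2 held 4, 7, 55 and 73, nearly all from the AMH-treated libraries. A cluster led by Sema3a held 3, 0, 22 and 6, and one whose leading genes include Amh and Nr5a2, genes of granulosa cells, held 13, 14, 21 and 32. Members outside the Slc26a7 cluster were about 2 times as deep as those in it, with medians of 15145, 17477, 14442 and 13112 UMIs against 6720, 8623, 7518 and 6552.

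**Figure D1:**
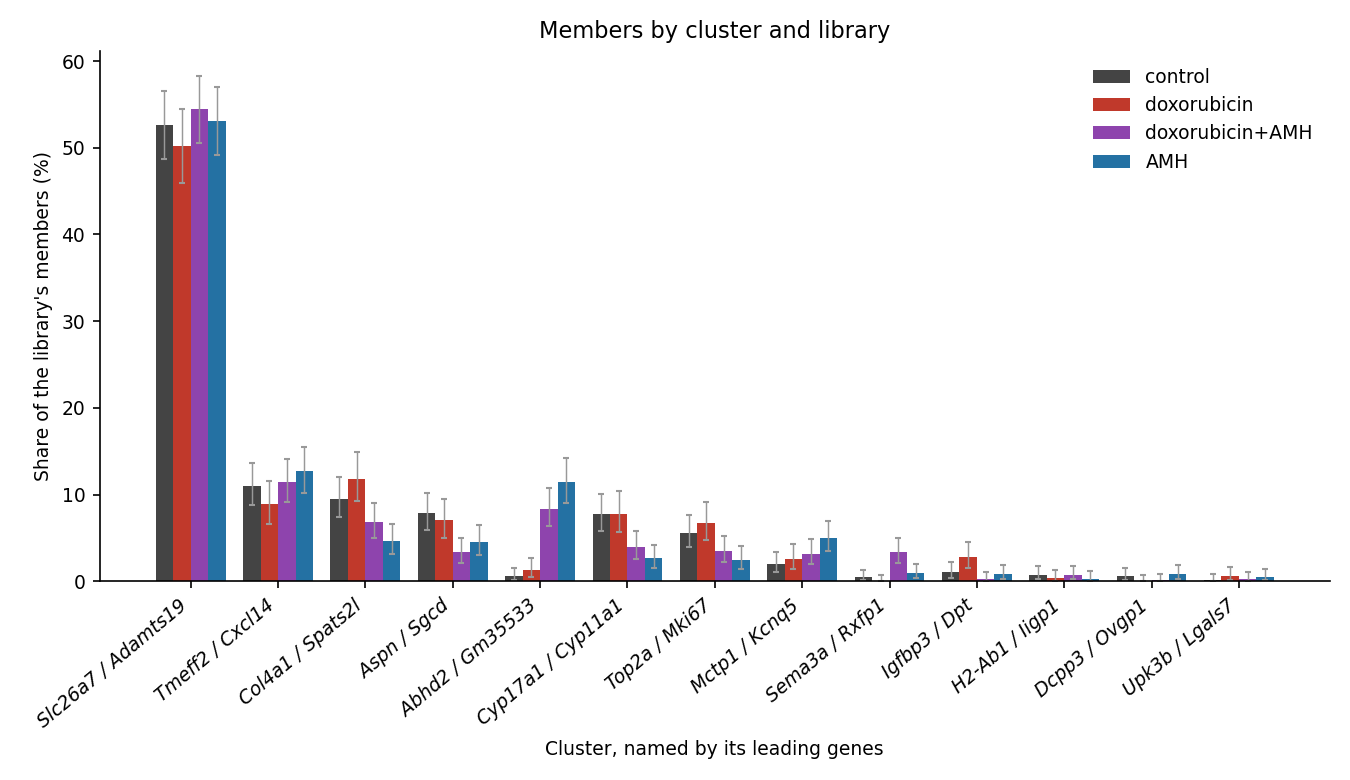
Share of each library's members (%, y axis) in each of 13 clusters of stromal cells (x axis, named by leading genes), with bars for the 4 libraries and exact 95% binomial intervals. The Slc26a7 cluster holds 50.2% to 54.4% of members in every library, whereas the Abhd2 cluster holds 0.605% and 1.30% in control and doxorubicin and 8.38% and 11.4% in doxorubicin+AMH and AMH.

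Members were next to one another more often the more marker genes they had. Among the 20 nearest neighbours of a member, 56.9% were members, against 32.2% over all stromal cells. The share was 44.7% for members with exactly 2 marker genes, 64.4% with 3, 79.3% with 4 and 83.6% with 5. It was 71.0% for members with Nkain3 and 48.8% for those without. For the 3479 stromal cells with 0 UMIs of Lrat and Clec3b and 0 or 1 marker gene, called other stromal cells below, it was 24.5%. The cells on either side of the threshold differed in the same direction: Adamts19 averaged 127 CPM in members with exactly 2 marker genes and 81.2 CPM in cells with exactly 1, and Wt1 105 and 66.9 CPM.

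Members were set against other stromal cells of the same library over the genes outside the rule. Of 6721 genes averaging 20 CPM or more in members, 12 (0.179%) were at least 2-fold higher in 4 of 4 libraries, and of 6890 genes at that level in either population 1 (0.0145%) was at least 2-fold lower. The count of 12 moved to 70 with cells thinned to 2000 UMIs, 44 with 3 marker genes, 93 for members with Nkain3 and 166 for those in the Slc26a7 cluster, and each of these held the 12. At 1.5-fold the counts were 60 (0.893%) and 12 (0.174%). Ratios are log2 of CPM plus 5. Since the members were chosen from counts of these same cells, they are a description with no test.

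Slc26a7 stood at 76.7, 84.6, 81.9 and 84.5 CPM in members and at 8.30, 6.15, 18.4 and 23.5 CPM in other stromal cells, log2 ratios of 2.62, 3.01, 1.89 and 1.65. Its level in members was alike in the 4 libraries, and the smaller ratios came with higher levels in other stromal cells of the AMH-treated libraries. Adamts19 stood at 255, 256, 254 and 226 CPM against 89.1, 46.7, 44.5 and 63.9 CPM. Wt1 stood at 219, 216, 131 and 144 CPM against 68.1, 48.4, 25.4 and 50.7 CPM, with ratios of 1.62, 2.05, 2.16 and 1.42. Wt1os, the antisense neighbour of Wt1, was higher with it, at ratios from 1.13 to 1.79. For Gata6, a transcription factor of gonadal somatic cells, the ratios ran from 1.02 to 1.37.

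The remaining genes of this ranking had lower levels. Sorcs1, a sorting receptor of neurons, had 33.8, 24.0, 17.9 and 20.3 CPM in members against 3.07 to 5.34 CPM. Zdbf2 had log2 ratios of 1.30 to 1.54, Prkcb, a protein kinase C, of 1.24 to 1.54, Fgf13, an intracellular FGF-like protein, of 1.16 to 1.68, and Hmcn1, a matrix protein, of 1.16 to 1.31. Syt1, a calcium sensor of vesicle release, stood at 45.3 to 51.6 CPM against 13.3 to 21.2 CPM. Ablim1 and Stxbp6, Col12a1, Plxna2 (a semaphorin receptor), Kcnma1 (a potassium channel), Pik3r1 (a regulatory subunit of PI3 kinase), Sntg2, Galnt17 and Prr16 completed the 20 highest, with a lowest ratio of 0.92 to 1.01.

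Genes lower in members were led by the complement gene C3, at 9.32, 21.5, 13.5 and 21.8 CPM against 123, 112, 102 and 96.3 CPM in other stromal cells. It was the one gene at least 2-fold lower in every library, with a log2 ratio nearest to 0 of -1.92, which turned to 0.10 with cells thinned to 2000 UMIs. The thinned setting applied the rule to thinned counts, so that cells with Clec3b UMIs could enter it. In doxorubicin+AMH and AMH members 1 cell held 55.1% and 58.0% of the C3 UMIs. C3 averaged 620 CPM in stromal cells with Clec3b, which the rule leaves out. Emcn, a sialomucin of endothelium, stood at 16.4 to 21.2 CPM against 37.9 to 47.8 CPM, and Tmeff2, a leading gene of the largest stromal cluster, at 61.6, 39.7, 35.3 and 22.6 CPM against 135, 107, 68.3 and 59.4 CPM. For Grm7, a glutamate receptor, the ratio was -0.76 or below in every library. Slpi, Col25a1, Cavin2, Prkg1 and Colec11 were also among the 10 lowest.

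**Figure D2:**
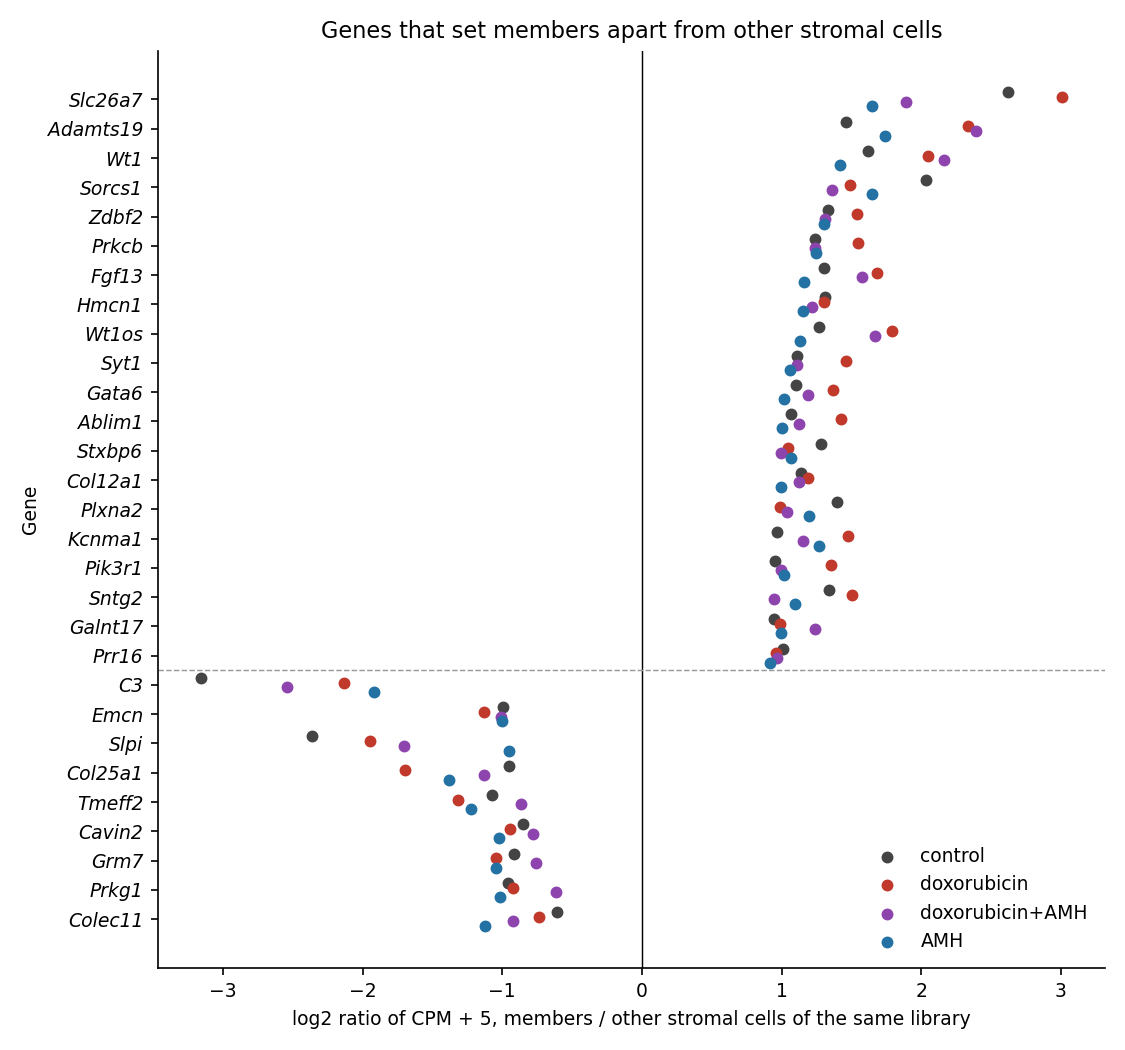
Log2 ratio of CPM plus 5 in members over other stromal cells of the same library (x axis) for the 20 highest and 9 of the 10 lowest genes (y axis), 1 point per library. Slc26a7 reaches 1.65 to 3.01 and C3 -3.16 to -1.92, while most other genes lie near 1 or -1 in all 4 libraries.

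Several of these genes also lead the Slc26a7 cluster, and their levels differed among members. Adamts19 averaged 637 CPM over members in that cluster and 79.9 CPM over those outside it, and Slc26a7 222 and 21.7 CPM. Divided by Nkain3 instead, Adamts19 averaged 510 CPM in members with Nkain3 and 144 CPM in those without, and Wt1 361 and 105 CPM. Other stromal cells averaged 61.1 CPM of Adamts19 and 14.1 CPM of Slc26a7.

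Among pathway genes, 3 of 21 Wnt pathway genes with enough UMIs were at least 1.5-fold higher in members in 4 of 4 libraries and none lower. They were the ligands Wnt5a (44.5 to 59.6 CPM against 24.8 to 34.2 CPM) and Wnt5b (24.8 to 31.4 against 8.63 to 13 CPM) and the receptor Fzd1 (22.7 to 27.5 against 11.0 to 14.3 CPM). Of 15 factors of gonad and tract mesenchyme, 2 were higher, Wt1 and Gata6. Of 22 growth factors and receptors, 2 were higher, Fgf2 at 23.1 to 31.2 CPM and the neurotrophin Bdnf at 19.5 to 30.8 CPM. The 3 Hox genes outside the rule with enough UMIs, Hoxc6, Hoxc8 and Hoxd8, were above other stromal cells in every library. None of them reached 1.5-fold in all 4, and Hoxd8 had log2 ratios of 0.41 to 0.69, past 1.5-fold at its highest. Of 23 matrix genes 2 were higher, Col12a1 and Tnc, a matrix protein of remodelled tissue, and 12 were lower in every library without any reaching 1.5-fold in all 4. The background share of 0.893% of all genes past 1.5-fold stands beside these counts.

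Lists of markers for other ovarian cell types were summed over the members. The 8 theca or steroidogenic genes summed to 4004, 3769, 2675 and 2519 CPM over all members and to 249, 197, 175 and 219 CPM over those in the Slc26a7 cluster. Other stromal cells had similar sums to all members, 3894, 3866, 2392 and 2312 CPM, also lower in both AMH libraries. The 10 granulosa genes summed to 750, 763, 886 and 1090 CPM, with Fshr at 0 by the rule. Smooth muscle genes summed to 449 to 626 CPM with Myh11 at 0 by the rule, blood endothelial genes to 47.2 to 52.9 CPM with Pecam1 at 0 by the rule, and macrophage genes to 16.5 to 31 CPM. Lymphocyte genes summed to 2.04 to 3.04 CPM with Ptprc and Cd3e at 0, pericyte genes to 28.7 to 60.1 CPM, surface epithelial genes to 55.3 to 115 CPM and oocyte genes to 4.48 to 7.82 CPM. Erythroid genes summed to 258 CPM in control and 13.1 to 31.7 CPM elsewhere, and 1 cell held 55.3% of the Hbb-bs UMIs of control members. The oviduct gene Ovgp1 stood at 174 CPM in control members, 59.3% of it from 1 cell, and at 2.83, 3.39 and 27.7 CPM in the others.

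Members made up 29.4% of stromal cells of control (27.6% to 31.4%), 31.4% of doxorubicin (29.2% to 33.6%), 34.6% of doxorubicin+AMH (32.5% to 36.8%) and 30.5% of AMH (28.6% to 32.6%). The doxorubicin+AMH share lay above the control interval, whereas control, doxorubicin and AMH overlapped. The order of the libraries depended on the denominator. Among stromal cells with 0 UMIs of Lrat and Clec3b, members made up 41.0% (661 of 1613), 45.2% (540 of 1196), 42.6% (656 of 1541) and 39.3% (638 of 1624), with doxorubicin the highest, at an interval of 42.3% to 48.0%. It overlapped the intervals of control (38.6% to 43.4%) and doxorubicin+AMH (40.1% to 45.1%) and lay above that of AMH (36.9% to 41.7%). Thinned to 2000 UMIs before the rule was applied, the share of all stromal cells was 10.1%, 11.0%, 12.8% and 10.5%.

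The first comparison was doxorubicin against its absence, over control (doxorubicin / control) and over AMH (doxorubicin+AMH / AMH), which share no library. A gene counted as called at 1.5-fold. Of 15 p53-target genes with enough UMIs, 4 were called higher in doxorubicin than in control members, Cdkn1a, Ccng1, Ckap2 and Phlda3, where 0.312% of all genes were. Within the Slc26a7 cluster none was called higher, 1 was called lower and the median of the list was -0.08. Of all genes in the cluster 0.439% were called higher and 0.969% lower. Of 6721 genes, 21 (0.312%) were higher and 26 (0.387%) lower in doxorubicin / control, 29 (0.431%) higher and 43 (0.64%) lower in doxorubicin+AMH / AMH, in both directions together 0.699% and 1.07%, and 1 (0.0149%) higher and 4 (0.0595%) lower in both.

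Cdkn1a, the cell-cycle inhibitor p21, stood at 25.0, 139, 54.1 and 39.1 CPM. Doxorubicin members were the highest and control members the lowest. Its log2 ratio was 2.26 in doxorubicin / control, with an interval of 2.27 to 2.68, and 0.42 in doxorubicin+AMH / AMH, with 0.27 to 0.67. Intervals are exact for the ratio of the counts without the pseudocount, so that a low gene's ratio can fall just outside its own interval. In other stromal cells its ratios were 2.27 and 1.08.

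Ccng1, Mdm2 and Eda2r were also highest in doxorubicin members. Ccng1, a cyclin induced by p53, stood at 14.98, 44.0, 18.6 and 17.8 CPM, and Mdm2, the ubiquitin ligase that limits p53, short of 1.5-fold at 35.5, 54.8, 39.7 and 32.5 CPM. Eda2r, the ectodysplasin A2 receptor, stood at 5.55, 39.8, 14.8 and 9.71 CPM, below the level needed to enter the counts. Of the 30 listed targets 15 had enough UMIs, and 4 were called higher in doxorubicin / control and 1 in doxorubicin+AMH / AMH, with none lower. The median log2 ratio of the list was 0.35 and 0.05, against -0.01 and 0.00 over all genes. With every cell weighted equally the first median was 0.12. In doxorubicin+AMH / doxorubicin the median was -0.29 and 3 of the 15 were called lower, where 1.01% of all genes were.

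The Cdkn1a UMIs of doxorubicin members lay mostly outside the Slc26a7 cluster. Of 1223 UMIs, 160 (13.1%) were in the 271 members of that cluster, 464 (37.9%) in 36 members of the proliferating Top2a cluster and 336 (27.5%) in 15 members of a cluster led by Igfbp3 and Dpt. Without the 10 cells that held most Cdkn1a UMIs in each library, the levels were 18.8, 89.5, 35.6 and 28.7 CPM. In members of the Slc26a7 cluster Cdkn1a stood at 40.1, 59.1, 50.7 and 54.8 CPM, log2 ratios of 0.51 (0.20 to 0.92) and -0.10 (-0.45 to 0.23). Outside it the levels were 18.7, 174, 55.8 and 33.0 CPM, with ratios of 2.91 and 0.68.

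Ccng1 and Mdm2 had the same split. In the Slc26a7 cluster Ccng1 stood at 13.1, 15.9, 10.2 and 11.7 CPM and Mdm2 at 31.6, 26.6, 39.2 and 30.5 CPM, with no separation of the doxorubicin library. Outside it Ccng1 stood at 15.7, 56.4, 22.6 and 20.1 CPM and Mdm2 at 37.1, 67.2, 39.98 and 33.3 CPM. Over the 14 targets with enough UMIs in the cluster, the median ratio was -0.08 and -0.02, with none called higher and 1 called lower in each contrast. Of all genes in the cluster 0.439% were called higher and 0.969% lower in doxorubicin / control, and 0.469% and 0.469% in doxorubicin+AMH / AMH. Bax, a promoter of cell death, stood at 58.2, 78.0, 64.8 and 61.4 CPM inside the cluster, with ratios of 0.39 (0.12 to 0.72) and 0.07 (-0.23 to 0.39). Eda2r stood there at 2.84, 8.87, 8.23 and 14.1 CPM, highest in AMH, with ratios of 0.82 (0.44 to 3.01) and -0.53 (-1.57 to 0.00). Thinned to 2000 UMIs, 0.870% to 1.4% of the cluster's members had an Eda2r UMI, with overlapping intervals. Phlda3, an inhibitor of AKT signalling, was higher in both contrasts inside the cluster (57.5, 80.2, 80.6 and 64.6 CPM) and outside it (25.7, 55.1, 33.0 and 22.6 CPM).

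**Figure D3:**
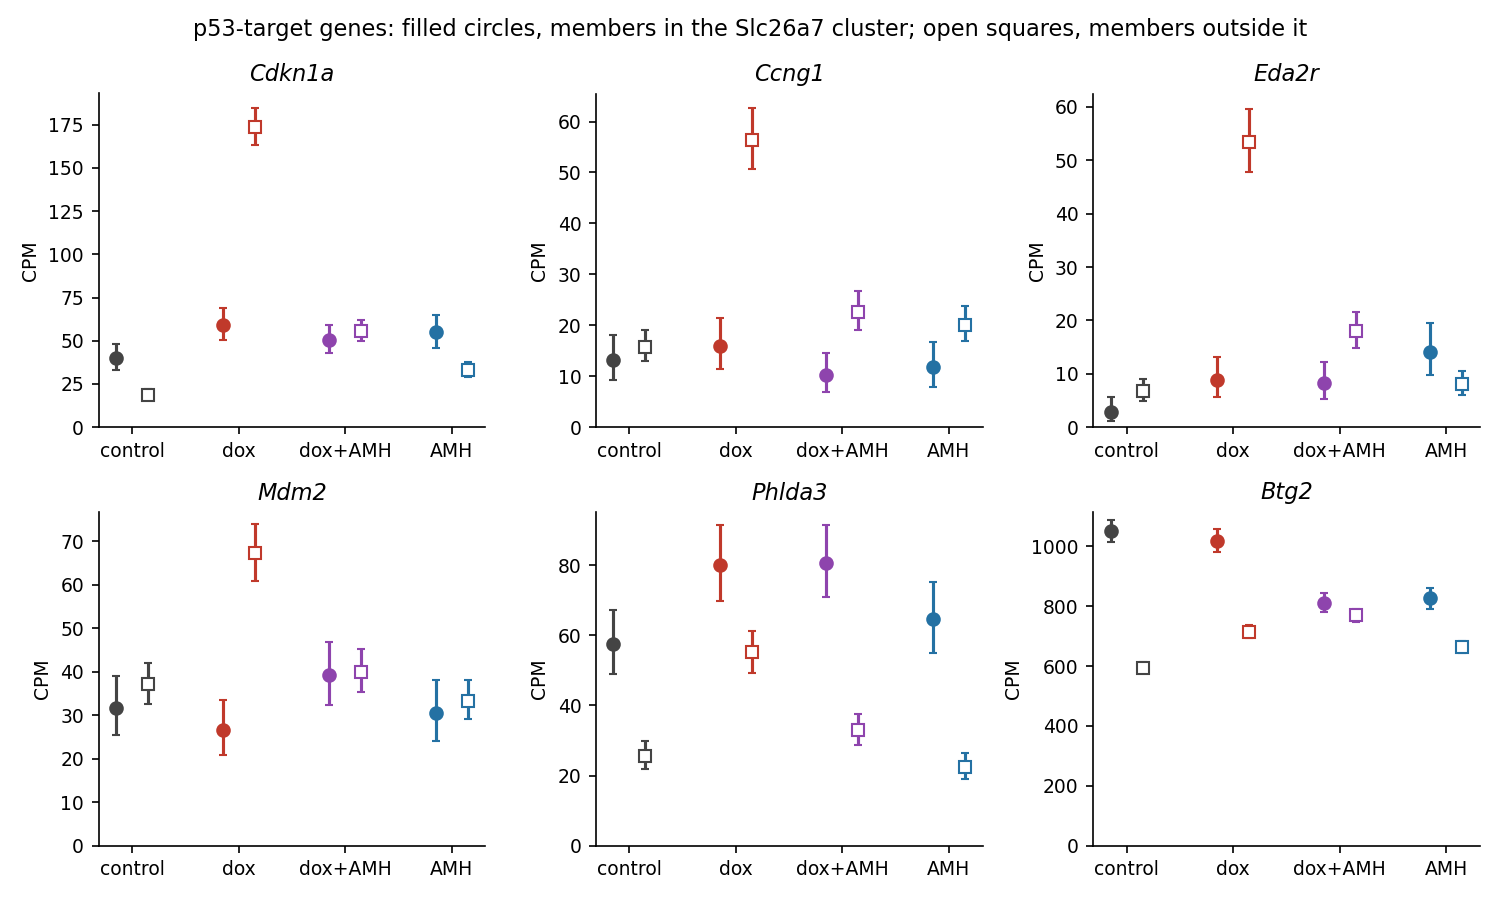
Levels in CPM (y axis, starting at 0) of 6 p53-target genes in each library (x axis; dox is doxorubicin), for members in the Slc26a7 cluster (filled circles) and outside it (open squares), with exact 95% Poisson intervals. For Cdkn1a, Ccng1, Eda2r and Mdm2 the open square of doxorubicin stands above all other points, while in these genes the filled circles of doxorubicin reach 59.1 CPM at most.

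The sequence that p53 binds was looked for in promoters of the list, since several of these genes were higher together. RefSeq promoter windows of GRCm38.p6 (250 bases before to 50 after a start) were searched for the p53 response element, a pair of adjacent repeats of 10 bases, with at most 1 mismatch outside the fixed C and G of each repeat. Windows on a single chromosome were left out of the search. The element reads the same on both strands. It was found in 22 of 27025 genes with a searched window (0.0814%). Among the 23 listed genes that have one it was found in 3 (13.04%), Cdkn1a, Ccng1 and Gtse1, the last a mitotic gene. The sites are shown on the strand of the gene, with 5 flanking bases in lower case on each side and the element in capitals.
Cdkn1a, chr17:29090923-29090952, plus strand: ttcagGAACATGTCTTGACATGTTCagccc
Ccng1, chr11:40755457-40755486, minus strand: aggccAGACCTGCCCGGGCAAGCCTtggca
Gtse1, chr15:85859940-85859969, plus strand: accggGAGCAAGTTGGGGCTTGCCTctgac
Each has 1 mismatch. Cdkn1a and Ccng1 had the highest ratios of the list in doxorubicin / control among genes with enough UMIs. A match describes the letters and is no evidence of binding in these cells. The list is one of known p53 targets, so its share of elements is a trait of the list and no result of these data.

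By the naming rule, the 8 genes highest in both contrasts were Ckap2, Ifi27l2a, Rnaset2b, Phlda3, Lsp1, Cdkn1a, Gm42047 and A930037H05Rik. Ckap2, a spindle protein on the p53 list, was the one gene called in both, at 15.6, 42.5, 18.3 and 10.0 CPM, and it stood at 2.35 to 4.61 CPM in the Slc26a7 cluster without a difference beyond counting error. The call did not hold with cells thinned to 2000 UMIs, with 3 marker genes, with every cell weighted equally or in members with Nkain3 alone. Ifi27l2a, an interferon-induced gene, stood at 161, 270, 130 and 89.9 CPM and was higher with doxorubicin inside that cluster as well (250, 431, 227 and 173 CPM). Its ratios were 0.25 and 0.04 in other stromal cells. Lsp1, an actin-binding protein, stood at 44.2, 61.3, 60.2 and 32.3 CPM. Rnaset2b shares 74.0% of its last 500 bases' 31-base words with Rnaset2a, so its reads may be split with that copy.

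Among the 8 lowest were Gm10076, Cd24a, Plxna2, Omd, Dnah7b, Ezr and Phactr2, none of which passed 1.5-fold in both contrasts. Gm10076, which shares 82.2% of these words with the ribosomal gene Rpl41, stood at 410, 290, 403 and 660 CPM. Plxna2 stood at 63.6, 40.4, 65.6 and 89.4 CPM. It was lower with doxorubicin outside the Slc26a7 cluster (48.7, 24.7, 45.9 and 85.8 CPM) and not in both contrasts inside it (99.1, 75.7, 107 and 98.6 CPM).

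Within the Slc26a7 cluster the same ranking named other genes, by a repeat of the rule added after the clusters were seen. Of 6607 genes 29 (0.439%) were called higher and 64 (0.969%) lower in doxorubicin / control, 31 (0.469%) and 31 (0.469%) in doxorubicin+AMH / AMH, together 1.41% and 0.938%, and 2 (0.0303%) and 3 (0.0454%) in both. Pmepa1, a brake on TGF-beta signalling, stood at 444, 621, 626 and 439 CPM, with ratios of 0.48 (0.38 to 0.59) and 0.51 (0.40 to 0.62). Dhrs3, a retinal reductase, stood at 38.0, 59.1, 52.7 and 34.8 CPM. For both genes the doxorubicin libraries were above the others, but neither gene passed 1.5-fold in either contrast. Mvp, Ngfr, Gm2000, Lrrc42 and Rnaset2b were also among the 8 highest. Of the genes given here Rnaset2b alone passed 1.5-fold in both contrasts, with ratios of 0.66 and 0.62.

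Among the 8 genes lowest with doxorubicin in the cluster were Gabrb1, Kcnmb2 and Tnfaip6. Gabrb1, a GABA receptor subunit, stood at 41.9, 20.7, 17.8 and 46.2 CPM. Kcnmb2, a subunit of the channel that Kcnma1 forms, stood at 49.4, 27.3, 26.7 and 42.3 CPM, and Tnfaip6, a hyaluronan-binding protein, at 41.9, 25.5, 20.4 and 37.2 CPM. Both doxorubicin libraries lay below both others for each of them. Pwwp3b, Dennd6a, Nabp1 and Larp1b were also among the 8 lowest. Of the genes given here Gabrb1, Tnfaip6 and Pwwp3b passed 1.5-fold in both contrasts, and Kcnmb2 passed it in doxorubicin / control only. The cluster's members with doxorubicin were the deeper ones of the pair in each contrast, and the part of depth was not tested.

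The second comparison was AMH against its absence, AMH / control and doxorubicin+AMH / doxorubicin, which share no library either. Members from AMH-treated mice had less RNA of Cyp17a1, Cyp11a1 and Wt1, and more RNA of the chemokines Cxcl10 and Cxcl1, the protease inhibitors Serpinb9 and Serpinb6b and the SMAD-induced inhibitor Smad6. Of 6721 genes 83 (1.23%) were called higher and 125 (1.86%) lower in AMH / control, 39 (0.58%) and 68 (1.01%) in doxorubicin+AMH / doxorubicin, in both directions together 3.09% and 1.59%, and 23 (0.342%) and 33 (0.491%) in both. More genes passed 1.5-fold in both contrasts of this pair than of the doxorubicin pair.

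Cyp17a1, the enzyme of androgen synthesis, stood at 353, 446, 118 and 44.6 CPM, log2 ratios of -2.85 and -1.88. Cyp11a1, which makes pregnenolone from cholesterol, stood at 656, 627, 247 and 144 CPM. Both AMH libraries were below both others. The other lowest genes were Fabp3, a fatty acid carrier (97.8, 133, 36.1 and 38.2 CPM), Susd3, Nckap5, Fads2, a fatty acid desaturase (112, 123, 46.7 and 48.0 CPM), Pank1, of coenzyme A synthesis (144, 135, 58.4 and 64.8 CPM), and Bmp6, a BMP ligand (34.5, 26.0, 10.4 and 14.95 CPM). In cells outside the stromal criteria Cyp17a1 had ratios of -4.08 and -2.81. In members with Nkain3 alone none of these 8 genes was past 1.5-fold in both contrasts, and Cyp17a1 had opposite signs in them. With cells thinned to 2000 UMIs, Cyp17a1 and Cyp11a1 alone of the 8 were.

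Thinned to 2000 UMIs, members with a Cyp17a1 UMI made up 7.75%, 7.81%, 3.35% and 1.25%, so fewer members of the AMH-treated libraries carried it. The Cyp17a1 cluster held 51, 42, 26 and 17 members, and the theca marker sum is given above. At the finer resolution of 1, a cluster led by Cyp11a1 and Fabp3 held 26, 25, 0 and 2 members, and one led by Sct and Ryr2 held 25, 17, 26 and 15. Genes that define these clusters differed between libraries, so their sizes are given as values only. Their part in the levels was not tested. In the Slc26a7 cluster Cyp17a1 stood at 8.52, 5.91, 0.658 and 0.783 CPM and Cyp11a1 at 43.0, 27.7, 7.24 and 7.44 CPM. Fads2 there stood at 23.8, 25.5, 19.1 and 19.6 CPM and Pank1 at 22.02, 21.8, 25.3 and 20.7 CPM, with intervals of both ratios that included 0. Thinned to 2000 UMIs, members of the cluster with a Cyp17a1 UMI made up 2.03%, 1.85%, 0% (up to 1.03%) and 0.295%. In the Ptprc cells defined above, without UMIs of the stromal genes, the shares were 3.60%, 0%, 0% and 0% (40 to 139 cells). The medians before thinning were 6552 to 8623 UMIs in the cluster and 6591 to 9309 UMIs in Ptprc cells. The control share in the cluster was below that in Ptprc cells, so no difference in Cyp17a1 is read from the cluster. For Cyp11a1 the part of free RNA was not tested.

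Wt1 was lower in AMH-treated libraries in the members and in the Slc26a7 cluster alike. Over all members its ratios were -0.59 (-0.71 to -0.51) and -0.71 (-0.83 to -0.62). In the cluster it stood at 512, 505, 307 and 321 CPM, with ratios of -0.66 (-0.80 to -0.55) and -0.71 (-0.84 to -0.60), and both AMH libraries lay below both others by more than counting error. Outside the cluster it stood at 96.9, 88.5, 46.9 and 75.1 CPM. Adamts19, which marks the same cells, stood at 657, 641, 648 and 604 CPM in the cluster, ratios of -0.12 and 0.02, and Slc26a7 at 225, 238, 205 and 220 CPM. Sorcs1, another leading gene, was lower with AMH in the cluster as well, at 95.5, 63.9, 41.8 and 54.8 CPM, ratios of -0.75 (-1.11 to -0.50) and -0.56 (-0.95 to -0.27).

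Serpinb9, Mt1 and Abhd2 were higher with AMH over all members but not by more than counting error in the Slc26a7 cluster. Serpinb9, an inhibitor of granzyme B, stood at 18.5, 16.3, 43.2 and 44.9 CPM over all members, at 20.6, 18.0, 55.8 and 55.1 CPM outside the cluster and at 13.5, 12.6, 16.8 and 18.4 CPM inside it. The metallothionein Mt1 stood at 506, 483, 924 and 908 CPM over all members and at 99.1, 88.7, 85.6 and 101 CPM inside the cluster. Abhd2, a lipid hydrolase, stood at 114, 90.5, 186 and 193 CPM over all members and at 33.7, 32.1, 28.6 and 27.8 CPM inside it. Mt1 and Abhd2 are leading genes of the cluster whose members came nearly all from the AMH-treated libraries.

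The chemokine Cxcl1 was higher with AMH in both sets. It stood at 33.1, 31.3, 94.6 and 69.5 CPM over all members and at 27.7, 23.3, 62.2 and 39.9 CPM in the Slc26a7 cluster, with ratios there of 0.46 (0.09 to 0.97) and 1.25 (1.00 to 1.85). Cxcl10, an interferon-induced chemokine, stood at 20.7, 25.1, 60.2 and 50.2 CPM over all members. In the cluster it stood at 7.81, 18.8, 25.3 and 14.9 CPM, with the AMH library below doxorubicin. Its ratios there were 0.63 (0.13 to 1.76) and 0.35 (-0.10 to 0.97). With cells thinned to 2000 UMIs, or in members with Nkain3 alone, none of Cxcl1, Cxcl10, Serpinb9, Serpinb6b, Mt1, Mt2 and Abhd2 was past 1.5-fold in both contrasts, and Cxcl1 had opposite signs in them when thinned. Serpinb6b, at 56.3, 41.2, 96.2 and 113 CPM, and Mt2 were also among the 8 highest over all members. In the cluster Serpinb6b stood at 30.5, 19.6, 30.9 and 24.7 CPM and Mt2 at 5.33, 6.65, 3.95 and 5.48 CPM, with no separation of the AMH libraries.

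Of the 8 BMP and SMAD target genes 5 had enough UMIs, and none was called in either contrast. Their median log2 ratio was 0.09 in AMH / control and 0.18 in doxorubicin+AMH / doxorubicin, against -0.06 and -0.06 over all genes. With every cell weighted equally the medians were -0.14 and 0.03, so the first turned its direction. Id2, an inhibitor of helix-loop-helix factors, stood at 144, 120, 170 and 214 CPM, and Smad7, an inhibitory SMAD, at 40.7, 35.3, 51.2 and 56.8 CPM, with both AMH libraries above both others. Id1 stood at 176, 133, 152 and 142 CPM and Id3 at 733, 649, 709 and 674 CPM, with opposite signs in the 2 contrasts. Smad6, the other inhibitory SMAD, had too few UMIs to enter the counts but stood at 8.48, 8.05, 22.03 and 32.0 CPM.

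In the Slc26a7 cluster the BMP and SMAD genes divided. Smad6 stood at 9.23, 7.39, 17.8 and 17.2 CPM, ratios of 0.64 (0.17 to 1.66) and 0.88 (0.50 to 2.08), and both AMH libraries were above both others. Id1 stood at 370, 221, 216 and 164 CPM and was highest in control. Id3 stood at 1513, 1208, 1064 and 1051 CPM, with ratios of -0.52 and -0.18. The list's median in the cluster was -0.10 and 0.00 over 6 genes, with 1 called lower in AMH / control, where 1.85% of all genes in the cluster were. Id2 stood at 246, 207, 189 and 224 CPM in the cluster, with ratios of -0.13 and -0.13 whose intervals included 0, and at 102, 81.1, 161 and 210 CPM outside it.

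**Figure D4:**
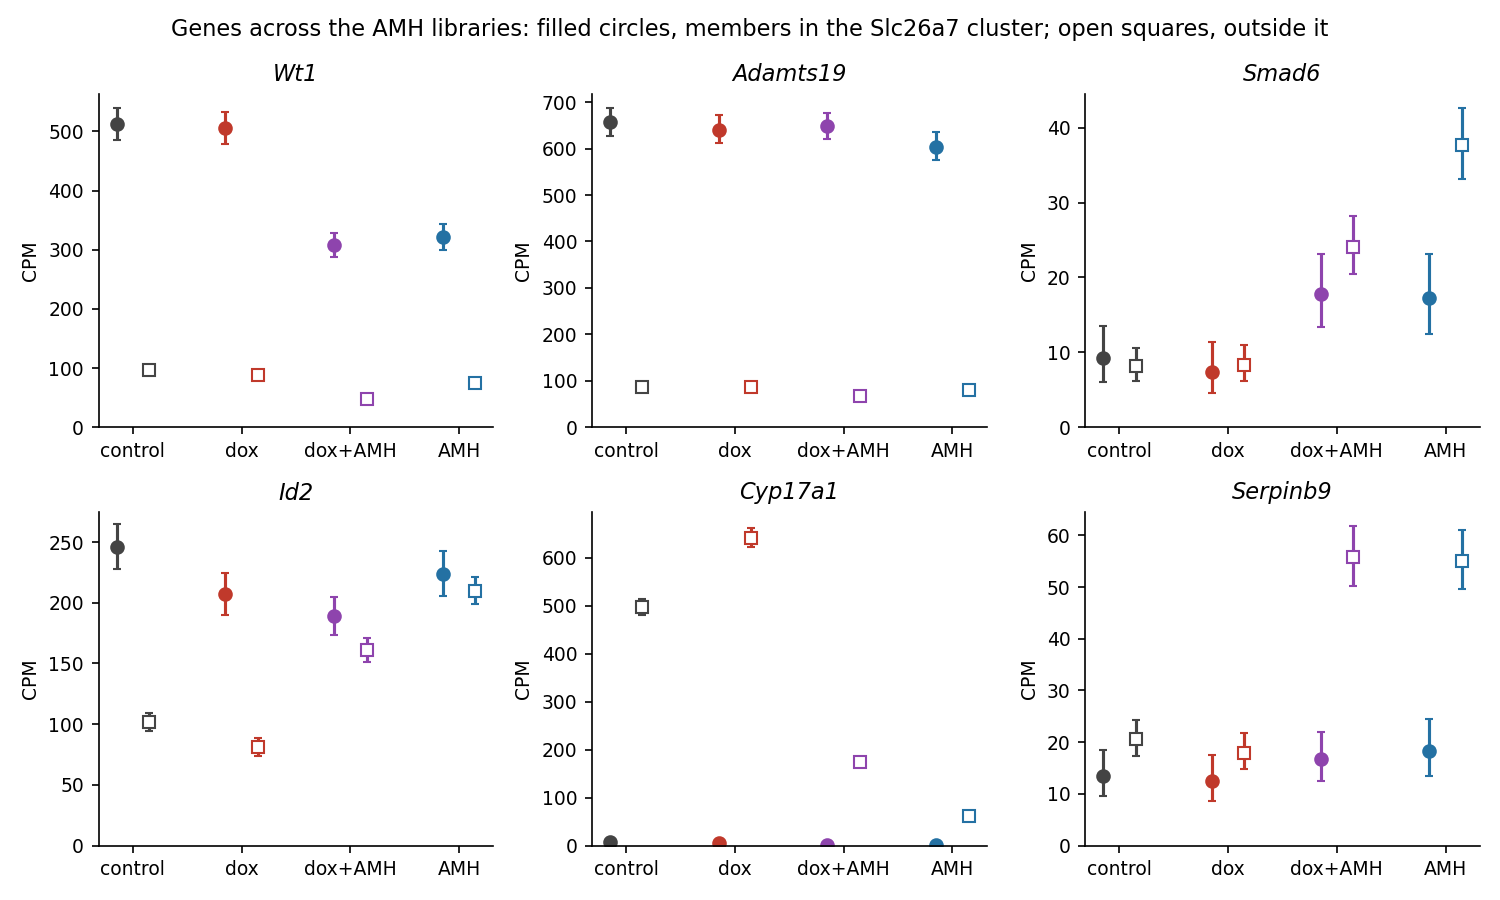
Levels in CPM (y axis, starting at 0) of 6 genes in each library (x axis; dox is doxorubicin) for members in the Slc26a7 cluster (filled circles) and outside it (open squares), with exact 95% Poisson intervals. Wt1 is lower and Smad6 higher in both AMH libraries in both sets, and Cyp17a1, Serpinb9 and Id2 stand apart in the AMH libraries among the open squares.

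Within the Slc26a7 cluster 41 genes (0.621%) were called higher and 122 (1.85%) lower in AMH / control, together 2.47%, and 46 (0.696%) and 74 (1.12%) in doxorubicin+AMH / doxorubicin, together 1.82%. In both contrasts 7 (0.106%) were higher and 15 (0.227%) lower. Among the 8 lowest were Lncpint, a long noncoding RNA (332, 358, 183 and 181 CPM), Dennd2a (141, 143, 85.9 and 84.5 CPM), Cop1, a ubiquitin ligase (160, 147, 92.8 and 87.3 CPM), Grid1, Wt1, Sema4a and Gm6225. For each of the 3 with values both AMH libraries were below both others. The 7 were Hsd17b1, Bex4, Inha, Tnni3, Kctd14, Rgcc and Fst, which the naming rule leaves out, since their mean level in these cells was below 0.5 of that outside the stromal criteria. Among the 8 highest that the rule names, none of those given here passed 1.5-fold in both contrasts. They were Dbp, a clock output factor (28.4, 42.9, 64.2 and 50.5 CPM), Fam171a1, Gstp1, a glutathione transferase (21.3, 26.6, 40.1 and 40.7 CPM), Irgm2, Gm10076, Relb and Hspa1a, a heat shock gene (111, 109, 154 and 302 CPM). Gstp1 shares 42.2% of its last 500 bases' words with Gstp2.

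The matrix list was lower in AMH members than in control members. Its median was -0.55 in AMH / control, with 9 of 23 genes called lower where 1.86% of all genes were, and -0.25 in doxorubicin+AMH / doxorubicin, with 1 called lower. Col3a1 stood at 929, 908, 800 and 598 CPM and Fn1, fibronectin, at 113, 112, 140 and 68.5 CPM. Both genes were lowest in the AMH library, and Fn1 was highest in doxorubicin+AMH. In the Slc26a7 cluster the medians were -0.17 and -0.12, with 1 of 22 genes called lower in each contrast. Of all genes in the cluster 1.85% and 1.12% were called lower.

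The counts of the other lists stand beside shares of all genes called higher and lower of 0.312% and 0.387% in doxorubicin / control, 0.431% and 0.64% in doxorubicin+AMH / AMH, 1.23% and 1.86% in AMH / control, and 0.58% and 1.01% in doxorubicin+AMH / doxorubicin. DNA repair genes had none called of 11 in any contrast, with medians of -0.07 to 0.15. Wnt pathway genes had 1 called of 21 in all 4 contrasts together, and steroid receptors 1 of 5. Hedgehog response genes had none of 6 and Hox genes none of 3. G2/M genes had medians of 0.16, 0.26, -0.44 and -0.32 in the order doxorubicin / control, doxorubicin+AMH / AMH, AMH / control and doxorubicin+AMH / doxorubicin, with 3 of 20 called higher in the second, 4 lower in the third and 2 lower in the fourth, beside 37, 36, 23 and 16 members in the Top2a cluster. S phase genes had 1 called of 11, in the last contrast. Interferon response genes had 1 of 9 called higher and 1 lower in AMH / control and 1 higher in doxorubicin+AMH / doxorubicin. Dissociation stress genes had medians of 0.00 to 0.19 over 21 genes, with 2 called higher in AMH / control and 2 lower in doxorubicin+AMH / AMH. The gonad and tract factors had 2 of 15 called lower in each AMH contrast. Growth factors and receptors had 1 of 22 called higher and 2 lower in AMH / control and 2 lower in doxorubicin+AMH / doxorubicin. Of 9 AMH receptor and SMAD genes 2 were called higher in AMH / control and 1 lower in doxorubicin+AMH / AMH. Amhr2, the AMH receptor, stood at 28.0, 42.4, 33.7 and 50.1 CPM. In the sodium pump and Nkain list 1 of 5 was called higher in AMH / control and 1 lower in doxorubicin+AMH / doxorubicin. Of the opioid list outside Penk, Cpe, the carboxypeptidase that matures enkephalins, alone had enough UMIs, at 287, 290, 402 and 619 CPM over all members and 74.6, 84.6, 105 and 117 CPM in the Slc26a7 cluster.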

How the data were processed

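The 4 libraries, 1 per treatment, were measured with 10x Genomics 3′ single-cell chemistry, per the labels' protocols. The authors deposited matrices of unnormalised counts, as UMIs of 32285 genes in each barcode. The submitters' processing notes name cellranger 7.0.0, Seurat 4.1.0, R 4.2.0 and mm10, and no further step is given in the sources used here. Members and gene lists were chosen with earlier results of these data known. The genes named were the 20 highest and 10 lowest against other stromal cells, ranked by the library nearest to 0, the 8 highest and 8 lowest in each pair of contrasts, ranked by the contrast nearest to 0 among genes with a mean level in members of at least 0.5 of that in cells outside the stromal criteria, and the p53 and BMP/SMAD lists; other named genes were chosen after their values were seen. Some genes that these rules name are not reported here.

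Counts were summed over members of a library and scaled to CPM. Ratios are log2 of CPM plus 5, for genes averaging 20 CPM or more, without the genes of the rule. Stromal cells were clustered with scanpy 1.11.5 and leidenalg 0.10.2 (2000 variable genes, 30 components, 20 neighbours, resolution 0.6), a step added after the data were seen. Doublets were kept in the values given. Scrublet's own threshold marked 0 cells in each library, so the alternative removed the highest scores at 0.8% per 1000 cells, which took 18 to 30 members per library. Intervals are exact binomial or Poisson. The ratio script was checked on simulated data. Alternatives changed the rule, filters, pseudocount, scaling and weighting.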

Additional observations from a re-analysis of the deposited data

Results flagged for a closer look

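In 3 of 248 named genes looked at the effect of one agent had opposite signs with and without the other agent, by at least 1.4-fold each way and with counting intervals on opposite sides of 0. That size was chosen after the values were seen, and with 1 library per group the difference between the contrasts was not tested. Tmeff2, a leading gene of the largest stromal cluster, had a log2 ratio of -0.58 in doxorubicin / control (-0.83 to -0.44) and 0.55 in doxorubicin+AMH / AMH (0.39 to 0.90). Amhr2, the AMH receptor, had 0.52 (0.37 to 0.83) and -0.51 (-0.78 to -0.36), and stood at 8.88, 9.98, 14.8 and 9.0 CPM in the Slc26a7 cluster.

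Cdkn1a had 0.55 in AMH / control (0.40 to 0.88) and -1.28 in doxorubicin+AMH / doxorubicin (-1.51 to -1.21). In the Slc26a7 cluster these ratios were 0.41 (0.08 to 0.82) and -0.20 (-0.55 to 0.11).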

How the results depend on the processing

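Depth and the choice of members moved the results most, and the causes were not tested. At most 10% mitochondrial UMIs or at least 3000 UMIs moved none of the 18 summary values. With thinning to 2000 UMIs the rule was applied to thinned counts, and levels were summed from the full counts of cells that passed. This gave 255, 206, 240 and 210 members, of which 179, 143, 178 and 156 were members by the rule as reported. It therefore changed which cells were compared, with fewer cells, as well as the depth of the rule. Thinning to 2000 UMIs gave shares of 10.1%, 11.0%, 12.8% and 10.5%, 178, 210 and 289 genes past 1.5-fold in doxorubicin / control, doxorubicin+AMH / AMH and doxorubicin+AMH / doxorubicin (47, 72 and 107 as reported), a p53 median of -0.21 in AMH / control, BMP/SMAD medians of 0.044, -0.16 and -0.10 in doxorubicin+AMH / AMH, AMH / control and doxorubicin+AMH / doxorubicin, and 70 genes 2-fold higher and 45 lower than in other stromal cells. It also turned the nearest ratios of C3 (0.10), Slpi (0.42) and Bmp6 (0.11). Requiring 3 markers gave shares of 13.7%, 16.3%, 16.5% and 12.8%, 256 genes in doxorubicin / control and 215 in doxorubicin+AMH / AMH, medians in AMH / control of -0.092 (p53) and 0.31 (BMP/SMAD), and 44 and 15 genes against other stroma. Removing doublets gave 3 lower genes, and a pseudocount of 1 gave 21 higher and 4 lower. A filter at 50 CPM gave 23, 31, 109 and 55 genes in the 4 contrasts as ordered in the report and 7 higher genes. No filter gave 227, 356, 483 and 308, and a BMP/SMAD median of 0.28 in AMH / control. Equal weighting of cells gave a p53 median of 0.12 in doxorubicin / control, 31 genes in doxorubicin+AMH / AMH and 134 in AMH / control, BMP/SMAD medians of -0.14 and 0.026 in the AMH contrasts, and 36 and 7 genes against other stroma. Median-of-ratios scaling gave a p53 median of 0.031 in AMH / control. Of the 3 alternatives added after seeing the data, the Slc26a7 cluster alone gave shares of 15.5%, 15.7%, 18.8% and 16.2%, 93 genes in doxorubicin / control, p53 medians of -0.081, -0.16 and -0.13 in doxorubicin / control, AMH / control and doxorubicin+AMH / doxorubicin, BMP/SMAD medians of -0.10 and 0.0032 in the AMH contrasts, 166 and 180 genes against other stroma, and Abhd2 at -0.14. Members with Nkain3 alone gave shares of 11.6%, 10.5%, 13.04% and 10.7%, 306, 340 and 291 genes in doxorubicin / control, doxorubicin+AMH / AMH and doxorubicin+AMH / doxorubicin, p53 medians of -0.11 and -0.45 and a BMP/SMAD median of 0.33 (doxorubicin+AMH / doxorubicin for the last 2), and 93 and 52 genes against other stroma. Stromal cells without Lrat and Clec3b UMIs as the denominator gave shares of 41.0%, 45.2%, 42.6% and 39.3%. No paired analysis was possible because each group holds 1 library.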

Other observations

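Inhba, Fst and Hsd17b1, genes active in granulosa cells, were higher in members of the AMH-treated libraries. They were chosen after their values were seen. On the granulosa list Foxl2 and Amh were not higher, at 123, 127, 112 and 103 CPM and at 11.7, 17.3, 6.67 and 9.39 CPM, and Nr5a2 stood at 35.1, 19.2, 26.3 and 46.8 CPM. Inhba, a subunit of activin and inhibin, stood at 8.90, 23.8, 52.8 and 59.3 CPM, in the library order used above. Fst, the activin-binding follistatin, stood at 21.3, 14.1, 41.6 and 56.0 CPM, and Hsd17b1, which makes estradiol, at 9.11, 10.3, 41.3 and 51.3 CPM. Outside the stromal criteria the levels were 242 to 630 CPM for Inhba, 318 to 588 CPM for Fst and 154 to 418 CPM for Hsd17b1, in each case higher in both AMH libraries than in both others. The part of free RNA in the members' levels was not tested.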
